A study of Mus musculus with 6 samples.

Results

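The peroxiredoxins (Prdx1 to Prdx6), the superoxide dismutases (Sod1 to Sod3) and catalase (Cat) were examined in the whole-epididymis transcriptomes of WT and Ocln-KO mice. They form the main group of antioxidant enzymes beside the glutathione peroxidases. Members were taken by gene symbol, and each of the 10 was found among the 57127 genes listed. All animals were adult C57BL/6 mice. WT mice were wild type, and Ocln-KO mice were Ocln-/-, without occludin, a membrane protein of the tight junction, and were bred from heterozygous parents. No treatment was given to either genotype. There were 3 libraries of each genotype, 6 in all. The study's methods speak of separate extraction from pairs of mice and also of pooled RNA samples, so n counts libraries here, and whether they stand for separate mice is not settled. The p-values then measure the spread between these libraries, which may be technical in part.

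Superoxide dismutases turn superoxide into hydrogen peroxide, and catalase and the peroxiredoxins remove hydrogen peroxide. SOD1 works in the cytosol with copper and zinc, SOD2 in the mitochondrial matrix with manganese, and SOD3 is secreted; catalase sits in peroxisomes, and most peroxiredoxins are recharged by thioredoxin. In the epididymis these enzymes are known as part of the defence that protects maturing sperm, whose membranes are rich in oxidizable lipids.

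The libraries held between 30646424 and 38870780 counts, and values are given as CPM, the counts of a gene brought to a common library size with edgeR's TMM factors. Ocln was at 85.4 ± 6.50 CPM in WT (SD, n = 3) against 15.1 ± 0.231 CPM in the knockouts (n = 3), with a log2 fold change of -2.50 (adjusted p = 0.000108, edgeR's quasi-likelihood test). An extraction note in the sample records names prefrontal cortex, whereas the tissue field gives epididymis. Of 6 epididymal secretory genes, Crisp1, Lcn5 and Adam7 had at least 2477 CPM in every library, Defb41 ran from 3.90 to 156 CPM, and Lcn8 and Rnase10 reached no more than 2.30 and 0.591 CPM. The 6 genes of the cerebral cortex that were looked up had at most 1.87 CPM. On the first principal component, which held 47.2% of the variance, Ocln-KO replicate 3 lay at 86.31, against 17.68 and 29.14 for the other Ocln-KO libraries and -52.76 to -37.04 for WT.

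Across the family, transcripts of Prdx1 and Prdx6 fell in Ocln-KO and the other 8 members did not pass the test. A gene was called where edgeR's quasi-likelihood test gave an adjusted p under 0.05 (Benjamini-Hochberg over the 19691 genes tested). By this rule 2 of the 10 members were called, both lower, where 8.95% of all tested genes were called and 5.04% were lower. None of the members was called higher, where 3.91% of all tested genes were, and DESeq2 and limma-voom also called 0 higher. At an unadjusted p under 0.05, 4 members were lower and 0 were higher, against 15.2% and 13.9% of all tested genes. The fold change was negative for 7 of 10 members and for 49.1% of all tested genes. The median log2 fold change was -0.19 over the members and 0.01 over all tested genes. For 5 members all libraries of one genotype lay apart from those of the other, each lower in Ocln-KO; this was so for 36.3% of all tested genes, and in that direction for 19.4%. In bulk tissue, fewer cells that express a gene and less of its RNA per cell cannot be told apart, and that holds for each difference given here.

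**Figure D1:**
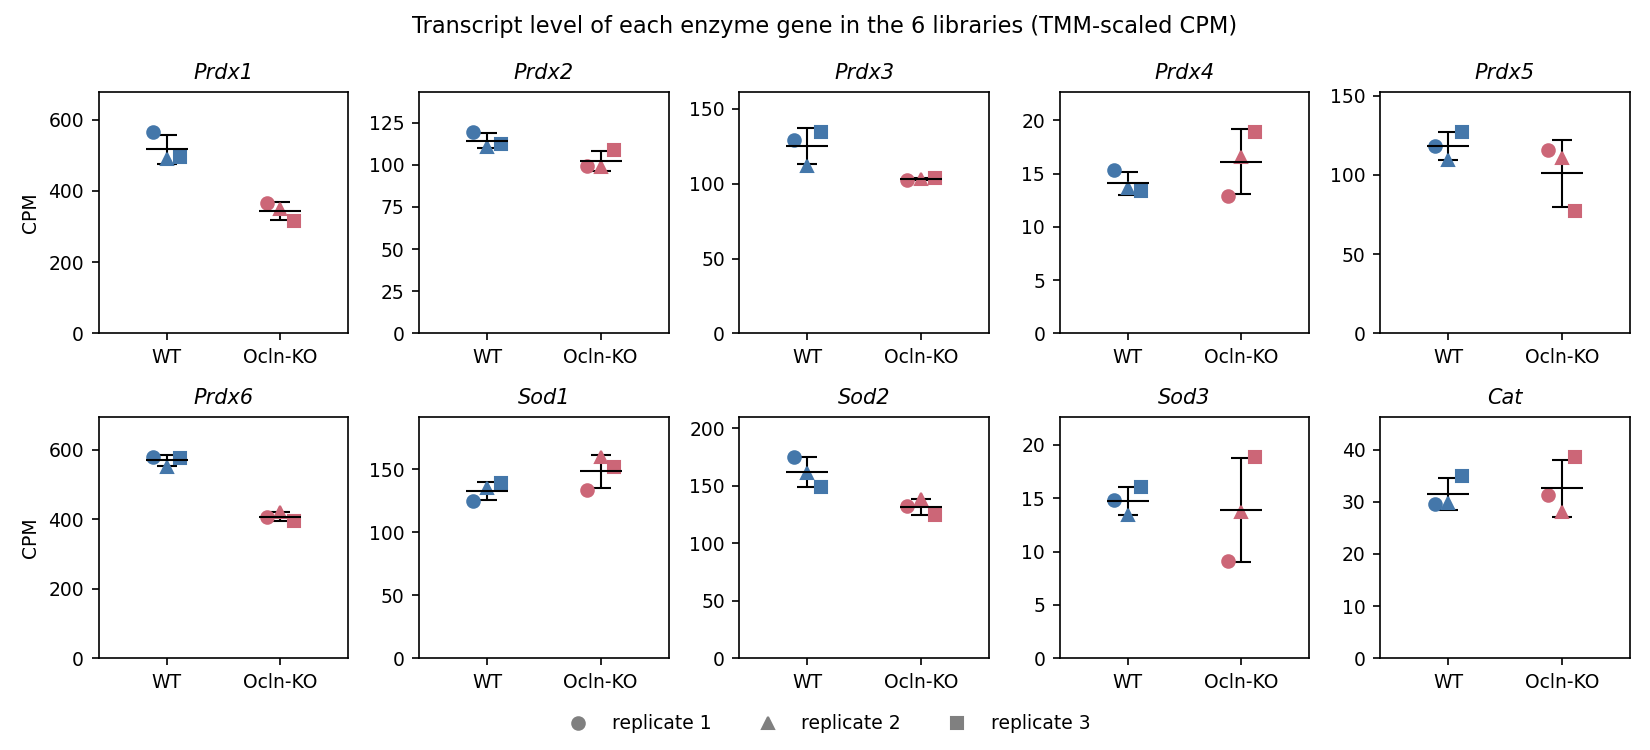
Level of each enzyme gene in every library in CPM (y axes start at 0 and differ between panels), with blue symbols for WT, red symbols for Ocln-KO, and the horizontal line and bars showing the mean and SD of 3 libraries. Prdx1 and Prdx6 stood between 490.0 and 579 CPM in WT and between 315 and 422 CPM in Ocln-KO, while Sod3 and Cat overlapped between the genotypes.

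Prdx1 encodes an abundant peroxiredoxin of the cytosol and nucleus that uses a pair of cysteines and thioredoxin (chromosome 4, 116685544 to 116700822, plus strand, GRCm38). The WT libraries had 565, 490.0 and 495 CPM, whereas those of Ocln-KO had 366, 349.9 and 315 CPM. Every Ocln-KO library lay below every WT library, and Ocln-KO replicate 3 was the lowest. The mean was 517 ± 41.8 CPM in WT against 344 ± 26.1 CPM in Ocln-KO (SD, n = 3 each). Prdx1 thus fell by 33.5%, a log2 fold change of -0.59 (standard error 0.10, 95% interval -0.83 to -0.35, adjusted p = 0.0228, edgeR's quasi-likelihood test).

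Prdx6 encodes the peroxiredoxin that works with a single active cysteine, takes glutathione as its reductant and also reduces oxidized phospholipids (chromosome 1, 161240112 to 161251219). The WT libraries had 579, 552 and 577 CPM, whereas those of Ocln-KO had 405, 422 and 395 CPM. The groups lay far apart and the libraries of each genotype close together. The mean went from 570 ± 15.4 CPM to 407 ± 13.5 CPM (SD, n = 3 each), and Prdx6 fell by 28.5%, a log2 fold change of -0.48 (standard error 0.08, 95% interval -0.68 to -0.29, adjusted p = 0.0226, edgeR's quasi-likelihood test). Prdx6b, a near copy on chromosome 2 with which reads could be shared, had 12.8 ± 3.65 CPM in WT against 11.4 ± 4.03 CPM in Ocln-KO, and how reads that align to both were counted is not stated.

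The calls of Prdx1 and Prdx6 depended on which libraries entered the fit. Without Ocln-KO replicate 3 they remained, with adjusted p at 0.0235 for Prdx1 and 0.0273 for Prdx6. They were lost without WT replicate 1 (adjusted p 0.102 and 0.103), WT replicate 2 (0.0612 and 0.0656), WT replicate 3 (0.0828 and 0.0882) or Ocln-KO replicate 2 (0.0574 and 0.0527). The log2 fold changes in those fits with a library left out stayed between -0.63 and -0.52 for Prdx1 and between -0.51 and -0.46 for Prdx6.

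**Figure D2:**
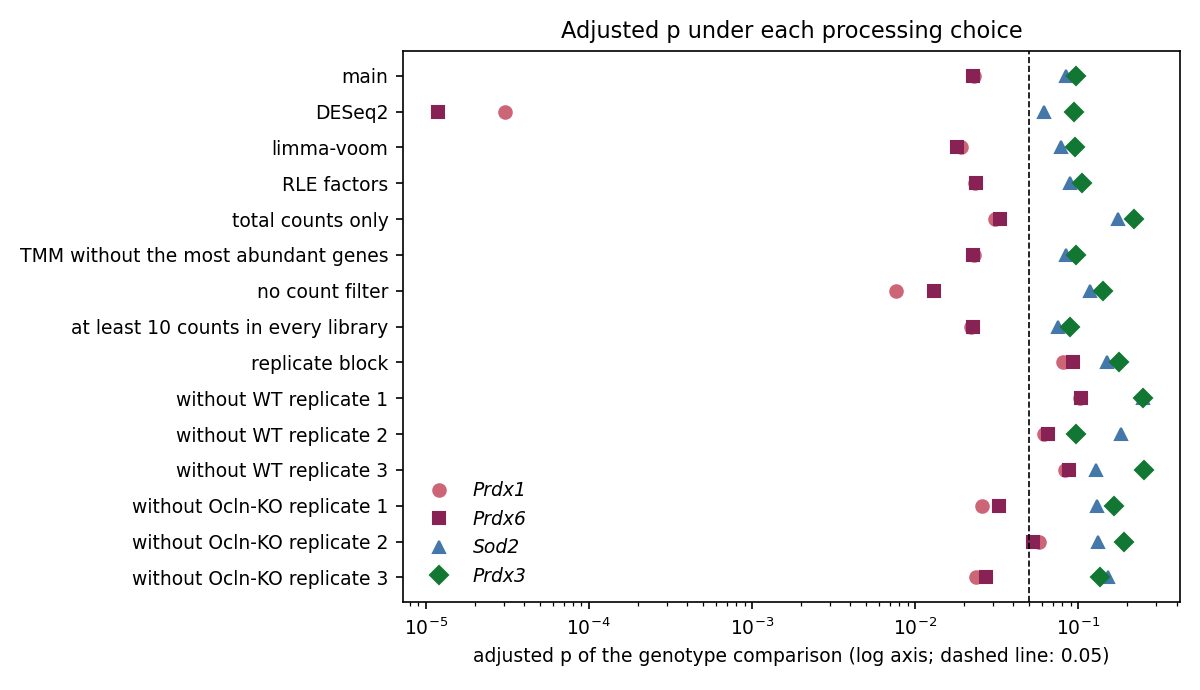
Adjusted p of the genotype comparison (x axis, log scale) for Prdx1, Prdx6, Sod2 and Prdx3 in the main fit and under 14 other settings (y axis), with the dashed line at 0.05. Prdx1 and Prdx6 lay under the line in 9 of the 14 settings, while Sod2 and Prdx3 stayed above it in every setting, at no less than 0.0621 and 0.0891.

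The remaining peroxiredoxins did not pass the test. Prdx2, the cytosolic relative of Prdx1 best known from red blood cells (chromosome 8, 84969587 to 84974834), had 119, 111 and 112 CPM in WT against 99.1, 98.7 and 109 CPM in Ocln-KO. Its WT libraries stood just above the Ocln-KO libraries, and the log2 fold change was -0.16 (95% interval -0.35 to 0.03, adjusted p = 0.245, edgeR). Prdx3, the peroxiredoxin of the mitochondrial matrix (chromosome 19, 60864051 to 60874556), had 129, 112 and 134 CPM in WT against 102, 103 and 104 CPM in Ocln-KO. The Ocln-KO libraries were nearly equal and all below WT, but the log2 fold change of -0.28 (95% interval -0.49 to -0.06) had an unadjusted p of 0.0171 and an adjusted p of 0.0962 (edgeR).

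Prdx4, the peroxiredoxin of the endoplasmic reticulum and the secretory route (chromosome X, 155323918 to 155340754), had 15.4, 13.7 and 13.3 CPM in WT against 12.9, 16.6 and 18.9 CPM in Ocln-KO. It was the only peroxiredoxin with a positive fold change, 0.19 on the log2 scale (95% interval -0.19 to 0.57, adjusted p = 0.486, edgeR), and its groups overlapped. Prdx5, found in mitochondria, peroxisomes and cytosol (chromosome 19, 6906697 to 6910106), had 119, 109.6 and 127 CPM in WT against 116, 111 and 77.0 CPM in Ocln-KO. Ocln-KO replicate 3 alone was low. Its log2 fold change was -0.23 (95% interval -0.59 to 0.13, adjusted p = 0.376, edgeR) and -0.07 without that library.

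Some annotated exons of Prdx2 and Prdx5 are shared with genes on the opposite strand, and the strand setting of the counting is not stated. Prdx2 shares 5.67% of its exon bases with Junb and 5.80% with Rnaseh2a, and Prdx5 shares 19.1% with Trmt112. The other 8 members share no exon bases with another annotated gene.

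Among the superoxide dismutases, none was called, DESeq2 and limma-voom called 0 as well, and Sod2 alone had an unadjusted p under 0.05. Sod1, the cytosolic enzyme (chromosome 16, 90220754 to 90226329), had 125, 135 and 139 CPM in WT against 134, 159.8 and 152 CPM in Ocln-KO. The groups overlapped, and the log2 fold change was 0.16 (95% interval -0.06 to 0.38, adjusted p = 0.317, edgeR). A fall of Sod1 as large as the estimates for Prdx1 and Prdx6 lies outside this interval.

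Sod2, the mitochondrial enzyme (chromosome 17, 13006846 to 13040063), had 175, 161 and 149 CPM in WT against 132, 138 and 125 CPM in Ocln-KO. Each WT library stood above each Ocln-KO library, with means of 162 ± 13.0 and 132 ± 6.99 CPM (SD, n = 3 each). The log2 fold change of Sod2 was -0.30 (95% interval -0.51 to -0.08), with an unadjusted p of 0.0133 and an adjusted p of 0.0844 (edgeR). SOD2 makes hydrogen peroxide in the compartment where PRDX3 removes it, and the transcripts of both enzymes missed the threshold.

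Sod3, the secreted enzyme bound to the extracellular matrix (chromosome 5, 52363791 to 52371418), had 14.8, 13.4 and 16.1 CPM in WT against 9.16, 13.7 and 18.9 CPM in Ocln-KO. The Ocln-KO libraries held both the lowest and the highest value. The log2 fold change was -0.09 (95% interval -0.65 to 0.48, adjusted p = 0.849, edgeR) and turned to 0.14 without Ocln-KO replicate 1.

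Cat, the peroxisomal catalase (chromosome 2, 103453849 to 103485160), had 29.6, 29.8 and 35.0 CPM in WT against 31.2, 28.0 and 38.6 CPM in Ocln-KO. Replicate 3 was the highest in each genotype and the groups overlapped fully. The log2 fold change was 0.05 (95% interval -0.27 to 0.37, adjusted p = 0.845, edgeR) and -0.09 without Ocln-KO replicate 3. The interval leaves room for a fall of up to 17.0%, so a fall as large as the estimate of Prdx1 or Prdx6 lies outside it. The paper reports, from immunolabelling, that catalase was enriched in WT clear cells and decreased in those of Ocln-KO. That is protein in clear cells, whereas the values here are RNA of the whole tissue.

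**Figure D3:**
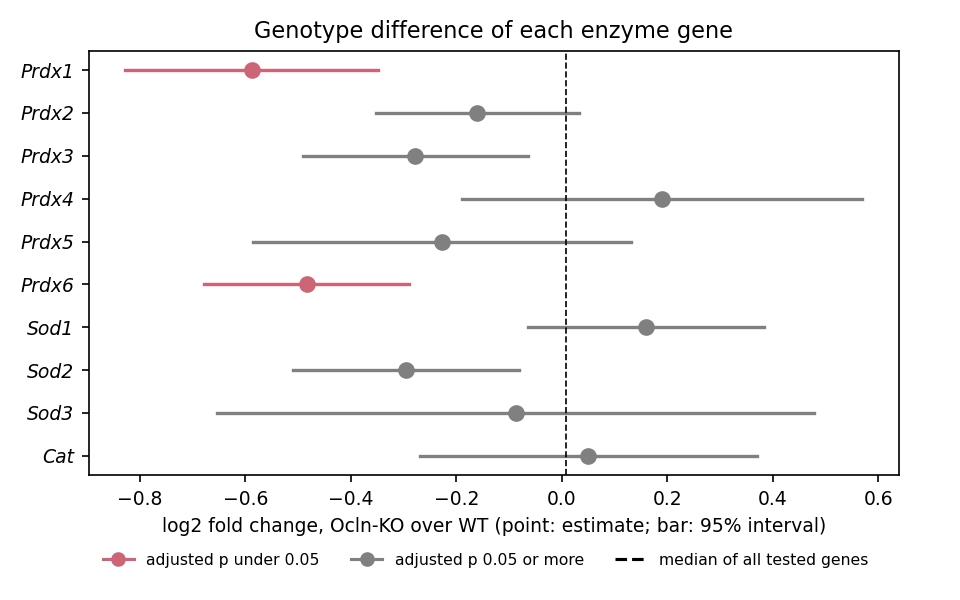
Log2 fold change of each enzyme gene, Ocln-KO over WT (x axis), with the point at the estimate and the bar at its 95% interval from edgeR; red marks an adjusted p under 0.05 and the dashed line the median of all tested genes, 0.01. The intervals of Prdx1, Prdx3, Prdx6 and Sod2 lie below 0 and the others include it.

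Levels of different genes can be compared only per length, and for that CPM were divided by the length of the principal transcript in kilobases. On this scale Prdx6 stood at 239 ± 6.45, Prdx1 at 225 ± 18.2 and Sod1 at 207 ± 11.5 CPM per kilobase in WT (SD, n = 3 each). Prdx6 lay above Sod1 in each WT library, whereas the libraries of Prdx1 overlapped with those of both. Prdx5, Prdx3 and Prdx2 followed at 93.8 ± 6.90, 84.7 ± 7.94 and 70.8 ± 2.80 CPM per kilobase, with the first pair overlapping. Sod2 had 27.6 ± 2.21, Prdx4 14.3 ± 1.09, Cat 12.0 ± 1.17 and Sod3 3.95 ± 0.355 CPM per kilobase. In Ocln-KO, Sod1 led with 231 ± 20.8 CPM per kilobase, above Prdx6 at 171 ± 5.64 and Prdx1 at 150 ± 11.4, and the groups of 3 libraries did not overlap between Sod1 and either. The order of the other 7 members by mean was as in WT, although Prdx4 and Cat then overlapped, and so did Prdx5 and Prdx2.

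The place of Sod1 in this order rests on the choice of transcript. The principal transcript of Sod1 has 641 bases, while all its annotated exons together have 3970, and over those Sod1 had 33.5 ± 1.85 CPM per kilobase in WT, sixth of the 10 members. Prdx1 then came first with 170 ± 13.7 and Prdx6 next with 119 ± 3.21 CPM per kilobase. Sod3 was the lowest member under either length.

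**Figure D4:**
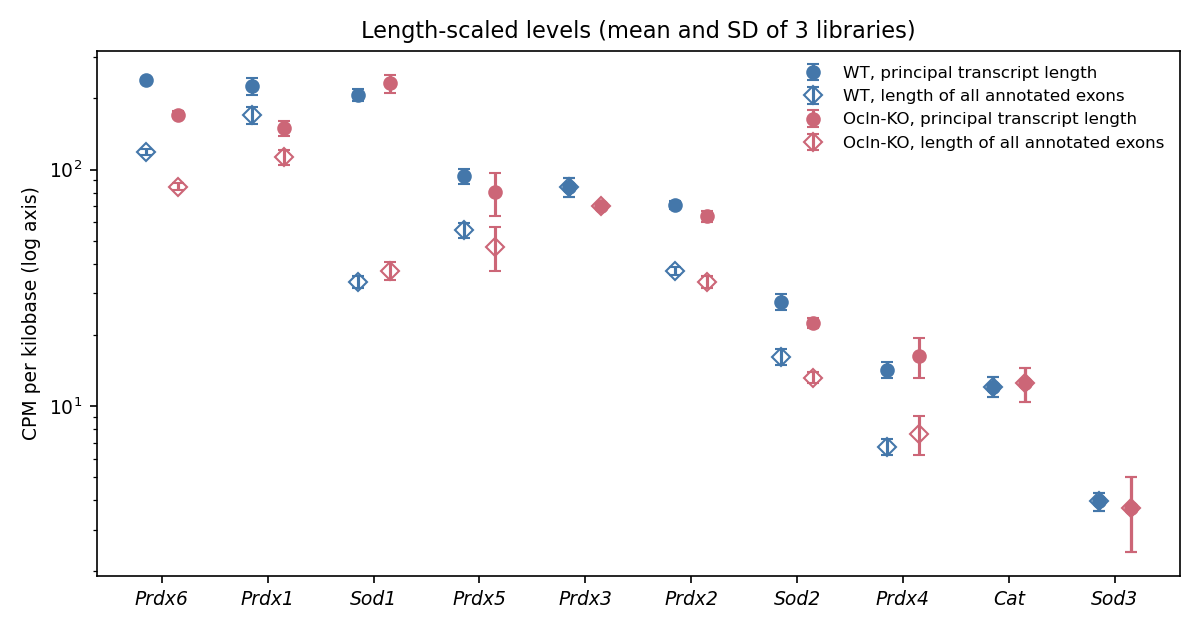
CPM per kilobase of each enzyme gene (y axis, log scale) in WT (blue) and Ocln-KO (red), as mean and SD of 3 libraries, by principal transcript length (filled circles) or the length of all annotated exons (open diamonds). By principal transcript Prdx6, Prdx1 and Sod1 stand above 200 in WT, and by all exons Sod1 drops to 33.5.

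Summed per kilobase over the principal transcripts, peroxiredoxin transcripts went from 760, 690 and 732 in WT to 565, 565 and 521 CPM per kilobase in Ocln-KO. The sums did not overlap, with means of 727 ± 35.3 and 550.0 ± 25.5 (SD, n = 3 each). Prdx1 and Prdx6 together made up most of them. The share of Prdx1 in the sum was 30.9% ± 1.47 in WT and 27.2% ± 0.957 in Ocln-KO, and that of Prdx6 was 32.8% ± 0.798 and 31.0% ± 0.884. Shares of a sum are tied to each other, and none was tested.

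The superoxide dismutases summed to 239 ± 9.38 CPM per kilobase in WT and 258 ± 21.9 in Ocln-KO, with overlapping libraries. Within that sum Sod2 took 11.6% ± 1.39 in WT and 8.77% ± 0.813 in Ocln-KO, and its libraries did not overlap. Sod1 took 86.8% ± 1.42 and 89.8% ± 0.456. These shares depend on the short principal transcript of Sod1, as above.

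Promoters were searched with the falls of Prdx1 and Srxn1 and the motif they share already known. This pair was picked on that basis, so its shared motif describes it and no more. Srxn1 encodes sulfiredoxin, the enzyme that repairs over-oxidized peroxiredoxins. RefSeq windows of GRCm38.p6 from 250 bases before to 50 after the start were found for 8 of the 10 members, all but Prdx6 and Sod3. They were searched on both strands for TGANTCAGC, a site of the transcription factor NRF2 with a small MAF partner, for TGACNNNGC, the wider core of the antioxidant response element, which overlaps the former where N of TGANTCAGC is C, and for GTAAACA, a FOXO core. The NRF2 and small MAF site was in 1 member, Prdx1, and in 1.19% of all 32851 windows. Among the partner genes described further on, 62 of 78 had a window and 3 held this site, namely Srxn1, Mt2 and Acox2, of which Srxn1 alone was called. The wider core was in 2 members, Prdx1 and Sod1, in 15 of the 62 partner genes with a window, and in 12.4% of all windows. Those 62 genes had 76 windows, so a count of partner genes cannot be set directly against a share of windows. The FOXO core was in no member's window and in 3.65% of all windows. It was in the partner genes Slc7a11, Txnip and Sesn1, of which Slc7a11 and Sesn1 were called. The upstream part of 3 windows is shown 5′ to 3′ on the plus strand, which is the strand of each gene, with the matched letters in capitals (the NRF2 and small MAF site in Prdx1 and Srxn1, the wider core in Sod1). In Prdx1 the match began 133 bases before the start on the opposite strand, in Srxn1 45 bases before it on the gene's strand, and in Sod1 56 bases before it on the opposite strand. The windows span chr4:116685349-116685598, chr2:152105274-152105523 and chr16:90220512-90220761. A match of letters describes the window and is not evidence of binding.
Prdx1: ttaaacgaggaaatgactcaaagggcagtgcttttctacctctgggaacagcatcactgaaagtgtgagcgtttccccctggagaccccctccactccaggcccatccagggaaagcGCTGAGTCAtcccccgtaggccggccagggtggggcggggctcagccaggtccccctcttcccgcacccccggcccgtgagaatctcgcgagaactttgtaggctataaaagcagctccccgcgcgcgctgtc
Srxn1: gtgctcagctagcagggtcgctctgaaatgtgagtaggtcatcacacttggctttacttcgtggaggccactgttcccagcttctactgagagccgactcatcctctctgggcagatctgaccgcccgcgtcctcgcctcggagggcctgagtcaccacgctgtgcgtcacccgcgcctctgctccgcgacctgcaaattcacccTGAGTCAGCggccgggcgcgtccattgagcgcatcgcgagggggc
Sod1: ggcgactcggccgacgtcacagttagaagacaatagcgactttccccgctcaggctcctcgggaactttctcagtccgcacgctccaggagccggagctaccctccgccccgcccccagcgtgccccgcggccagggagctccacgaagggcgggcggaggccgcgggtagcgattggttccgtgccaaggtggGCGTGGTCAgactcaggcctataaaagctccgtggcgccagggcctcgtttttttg

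Of 12 genes listed for the thioredoxin system and peroxiredoxin repair, sestrins included, Srxn1, Txn2 and Sesn2 fell and Sesn1 rose. All 12 were tested, 8 had a negative fold change, and the median was -0.18 on the log2 scale. Over all tested genes 5.04% were called lower, 3.91% were called higher and 49.1% had a negative fold change. Srxn1 had 250.3, 254 and 303 CPM in WT against 144, 133 and 78.0 CPM in Ocln-KO. The lowest WT library stood well above the highest Ocln-KO library, with -1.18 as its log2 fold change (standard error 0.22, edgeR, adjusted p = 0.0245). Txn2, the mitochondrial thioredoxin that recharges PRDX3, fell from 75.8 ± 9.54 to 54.9 ± 2.11 CPM (log2 fold change -0.47, adjusted p = 0.0411). The sestrins, stress-induced proteins that act on nutrient signalling, moved in opposite directions. Sesn2 went from 49.5 ± 6.67 to 33.6 ± 2.95 CPM (log2 fold change -0.56, adjusted p = 0.0359) and Sesn1 from 36.8 ± 4.44 to 53.0 ± 6.26 CPM (0.53, adjusted p = 0.0455).

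Txn1, the cytosolic thioredoxin, had 114 ± 13.9 CPM in WT against 96.5 ± 4.71 CPM in Ocln-KO (adjusted p = 0.195, edgeR). Txnrd1, the cytosolic thioredoxin reductase, had 195, 189.9 and 209 CPM in WT against 190.1, 133 and 139.6 CPM in Ocln-KO (adjusted p = 0.140). One WT library of Txnrd1 lay just under an Ocln-KO library, so the groups overlapped. Txnip, which binds and inhibits thioredoxin, had 319 ± 26.3 CPM in WT against 358 ± 58.8 CPM in Ocln-KO (adjusted p = 0.444).

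**Figure D5:**
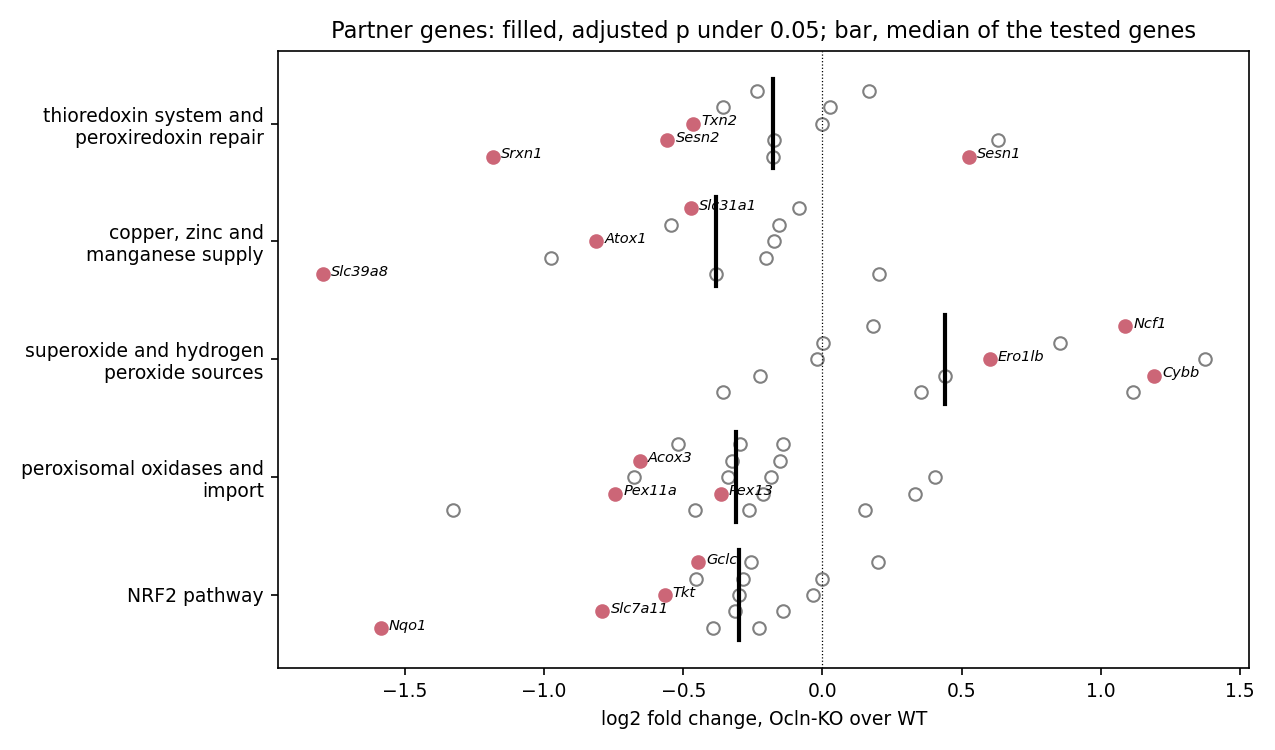
Log2 fold change, Ocln-KO over WT (x axis), of each tested gene in 5 lists of partner genes (rows), with filled red points for an adjusted p under 0.05 from edgeR and a vertical bar at the median of each list. Medians ran from -0.38 for metal supply to 0.44 for sources of superoxide and hydrogen peroxide.

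Superoxide dismutases need copper, zinc or manganese. Of the 12 genes listed for the supply of these metals, 11 were tested and 3 were called, all lower, with a median log2 fold change of -0.38. Among all tested genes 5.04% were called lower. Slc39a8, an importer of zinc and manganese, had 523, 492 and 356 CPM in WT against 126, 170 and 98.7 CPM in Ocln-KO. Every WT library stood above every Ocln-KO library by a wide gap, with -1.80 as its log2 fold change (standard error 0.22, edgeR, adjusted p = 0.0108). Atox1, a copper chaperone, had 101 ± 25.8 CPM in WT against 57.7 ± 9.05 CPM in Ocln-KO (log2 fold change -0.81, adjusted p = 0.0436). Slc31a1, the main copper importer, had 305 ± 16.4 and 219 ± 16.2 CPM (log2 fold change -0.47, adjusted p = 0.0286). Ccs, the chaperone that loads copper into SOD1, had 23.7, 22.7 and 25.9 CPM in WT against 13.3, 18.5 and 17.8 CPM in Ocln-KO. The groups of Ccs did not overlap, and its log2 fold change of -0.55 had an adjusted p of 0.0582.

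Among genes that produce superoxide or hydrogen peroxide, Cybb, Ncf1 and Ero1lb rose. Of 18 listed, 13 were tested, 10 had a positive fold change, and the median was 0.44 on the log2 scale. Among all tested genes 3.91% were called higher and 49.1% had a negative fold change. Cybb, the catalytic subunit of the phagocyte NADPH oxidase, had 11.9, 10.4 and 11.6 CPM in WT against 16.0, 23.1 and 38.2 CPM in Ocln-KO. Ncf1, a cytosolic subunit of the same oxidase, had 4.64 ± 0.882 CPM in WT against 9.86 ± 3.21 CPM in Ocln-KO. Their log2 fold changes were 1.19 (adjusted p = 0.0442, edgeR) and 1.09 (adjusted p = 0.04996, just under the threshold). Ero1lb, an oxidase of the endoplasmic reticulum that yields hydrogen peroxide, rose from 41.6 ± 4.98 to 63.1 ± 9.75 CPM (log2 fold change 0.60, adjusted p = 0.0396). Ocln-KO replicate 3 was the highest library for each of these 3 genes. Without it the adjusted p stayed under 0.05 for Cybb and went above it for Ncf1 and Ero1lb. With limma-voom Ero1lb alone of the 3 was called, and the adjusted p was 0.0672 for Cybb and 0.0650 for Ncf1.

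Macrophages, which carry the phagocyte oxidase, had marker genes summing to between 155 and 175 CPM in WT and between 179 and 295 CPM in Ocln-KO, with replicate 3 the highest. All 8 macrophage markers had a positive fold change (median 0.58 on the log2 scale). None was called by edgeR or limma-voom, 6 had an unadjusted p under 0.05, and DESeq2 called 4. Of 6 neutrophil markers only Csf3r was tested, and the list summed to at most 4.91 CPM in any library. The part of these cells in the rise of Cybb and Ncf1 was not tested.

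Peroxisomal oxidases make the hydrogen peroxide on which catalase acts, and the peroxins bring catalase and its neighbours into the organelle. Of 21 genes listed, 18 were tested and 3 were called, all lower, with a median log2 fold change of -0.31. The share called lower was 5.04% over all tested genes. Acox3, an acyl-CoA oxidase of branched fatty acids, had 633, 651 and 714 CPM in WT against 393, 482 and 393 CPM in Ocln-KO. The genotypes were clearly apart, with -0.66 as its log2 fold change (standard error 0.11, edgeR, adjusted p = 0.0227). Pex11a, which drives peroxisome division, went from 37.6 ± 3.46 to 22.4 ± 4.21 CPM (log2 fold change -0.75, adjusted p = 0.0309), and Pex13, part of the import pore, from 52.8 ± 3.20 to 41.0 ± 1.37 CPM (-0.37, adjusted p = 0.0422). Pex5, the receptor that imports catalase, had 66.8 ± 6.12 CPM in WT against 52.9 ± 3.87 CPM in Ocln-KO (adjusted p = 0.0760, edgeR).

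NRF2, encoded by Nfe2l2, is the transcription factor known to induce Prdx1, Srxn1 and many genes of glutathione and NADPH metabolism, and KEAP1 marks it for degradation. Of the 15 genes listed for this pathway, all tested, 4 were called, all lower, 14 had a negative fold change and the median was -0.30 on the log2 scale. Over all tested genes 5.04% were called lower and 49.1% had a negative fold change. Nqo1, a quinone reductase, had 113, 108 and 116 CPM in WT against 52.2, 30.8 and 29.2 CPM in Ocln-KO. Replicate 1, the highest of the Ocln-KO libraries, was still far below every WT library, with -1.59 as its log2 fold change (standard error 0.21, edgeR, adjusted p = 0.0128). Slc7a11, the cystine importer, had 623, 518 and 359 CPM in WT against 317, 296 and 254 CPM in Ocln-KO (log2 fold change -0.79, adjusted p = 0.0465). Gclc, the catalytic subunit of the enzyme that starts glutathione synthesis, went from 86.0 ± 1.44 to 63.1 ± 3.77 CPM (-0.45, adjusted p = 0.0246), and Tkt, the transketolase of the pentose phosphate pathway, from 195 ± 26.7 to 132 ± 13.0 CPM (-0.57, adjusted p = 0.0352).

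The regulators themselves did not pass the test. Nfe2l2 had 80.3, 87.2 and 86.0 CPM in WT against 102, 94.9 and 94.2 CPM in Ocln-KO (log2 fold change 0.20, adjusted p = 0.152, edgeR). It was the only gene of the list with a positive fold change. Keap1 had 58.4, 61.2 and 70.5 CPM in WT against 55.9, 48.4 and 50.3 CPM in Ocln-KO (log2 fold change -0.30, adjusted p = 0.109). Hmox1, a classical target of the pathway, had 6.02 ± 0.497 CPM in WT against 6.01 ± 2.19 CPM in Ocln-KO (95% interval of the log2 fold change -0.66 to 0.66).

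Over the 5 lists, 69 of 78 genes were tested, 13 were lower and 4 higher, where 5.04% and 3.91% of all tested genes were called in these directions. The lists were drawn up with results of these data known, so these counts describe the genes and no more. Without Ocln-KO replicate 3, 9 of the 17 were still called, and the adjusted p of the other 8 (Sesn1, Sesn2, Atox1, Ncf1, Ero1lb, Pex13, Slc7a11 and Tkt) ran from 0.0509 for Tkt to 0.0775 for Pex13. Without Ocln-KO replicate 1, 11 of the 17 were still called, and with WT replicate 1, WT replicate 2, WT replicate 3 or Ocln-KO replicate 2 left out 0, 2, 1 and 3 were.

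Summed marker genes of several cell types also differed between the genotypes, and whether cell numbers differed was not tested here. Of all tested genes 8.95% were called, 5.04% lower and 3.91% higher. The 7 clear cell markers all had lower values in Ocln-KO, 5 of them called, and they summed to 141 to 189 CPM in WT and 68.9 to 95.1 CPM in Ocln-KO. By labelling of B1-V-ATPase in sections, the paper counted fewer clear cells in Ocln-KO at puberty and in adults. General epithelial markers summed to 2237 to 2435 CPM in WT and 1964 to 2356 CPM in Ocln-KO. Of these 8 genes 1 was called, and it was higher in Ocln-KO. Basal cell markers summed to 251 to 269 and 259 to 305 CPM, with 1 of 6 called higher. Smooth muscle markers summed to 1182 to 1428 CPM in WT and 1615 to 2185 CPM in Ocln-KO, with 2 of 6 called higher. Red blood cell genes summed to 22.0 to 49.6 CPM in WT and 6.06 to 13.2 CPM in Ocln-KO, with 1 of 5 called lower, and adipocyte genes to 7.83 to 14.2 and 0.591 to 5.20 CPM. Of the 6 adipocyte genes none was called by edgeR or limma-voom, 3 had an unadjusted p under 0.05 and DESeq2 called 1. Sperm and spermatid transcripts summed to 297 to 369 CPM in WT and to 408, 411 and 96.4 CPM in Ocln-KO, the last in replicate 3. None of the 7 was called by edgeR, DESeq2 or limma-voom, and 0 had an unadjusted p under 0.05. Without replicate 3, 1 of them was called higher and 3 had an unadjusted p under 0.05. The part of these shifts in the fall of Prdx1 and Prdx6 was not tested.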

How the data were processed

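Trizol-extracted RNA of the whole epididymis was freed of rRNA, turned into directional libraries and sequenced as paired ends of 150 bases in 1 lane. The authors aligned reads to GRCm38 with HISAT2 (version 2.0.4 per the submitters' processing notes) and assigned them to genes with HTSeq. They deposited raw counts per gene and library, without normalization; the counting mode, strand setting and treatment of reads with several alignments are not given in the sources used here. Of the columns, 0 could not be matched to a sample.

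Genotypes were compared in R 4.3.3, edgeR version 4.0.16 (filterByExpr, TMM factors, glmQLFit and glmQLFTest, unpaired, Benjamini-Hochberg adjustment over 19691 genes). Alternatives used DESeq2 1.42.0, limma-voom (limma 3.58.1), other scaling and filters, a replicate block, and each library left out. Fits were also run on simulated counts with independent libraries, which does not bear on how the calls depend on single libraries. The standard error of a log2 fold change is its size over the root of F. Exact permutation tests of 3 against 3 cannot go below p = 0.1, so none is given.

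Positions and lengths come from GENCODE M21 (GRCm38), promoters from RefSeq (GRCm38.p6). Members and lists were chosen with earlier results of these data known. Of each partner list, called genes were named, up to the 4 with the largest change. Txn1, Txnrd1, Txnip, Ccs, Pex5, Nfe2l2, Keap1, Hmox1 and the marker Csf3r were named outside that rule, after their values were seen. Mt2 and Acox2, also outside it, were named for the motif in their windows.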

Additional observations from a re-analysis of the deposited data

How the results depend on the processing

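Under the 14 alternatives, Prdx1 kept its direction, with adjusted p from 3.08e-05 to 0.102, and so did Prdx6, from 1.20e-05 to 0.103; each was under 0.05 in 9. No member was called higher in any of the settings. The number of members called lower went from 2 to 0 with a replicate block (adjusted p 0.0807 for Prdx1 and 0.0927 for Prdx6) and to between 0 and 2 with a library left out. Of all tested genes, 1762 were called, against 3312 with DESeq2, 41 with the replicate block and 23 to 1692 with a library left out. Partner genes called went from 17 to 1 with the block and to between 0 and 14 with a library left out, and marker genes called from 10 to 21 with DESeq2, 0 with the block and 0 to 20 with a library left out. Fits with fewer libraries have fewer degrees of freedom; otherwise the cause was not tested. The study names pairs of mice without saying what they share, so the numbers were not taken to pair the mice. Libraries with the same number in both genotypes did not deviate together (r = -0.053, -0.031 and -0.003 across genes). With so few libraries of each genotype this cannot settle whether the mice were paired. With a library left out Sod3 ran from -0.3711 to 0.1446 and Cat from -0.0908 to 0.1501; Sod3 turned to 0.1446 without Ocln-KO replicate 1 (adjusted p = 0.648) and Cat to -0.0908 without Ocln-KO replicate 3 (adjusted p = 0.694), neither being called in any setting. Scaling by total counts moved the median log2 fold change of all genes from 0.01 to 0.09 and the share of called genes that were higher from 43.7% to 63.5%, and Prdx1 and Prdx6 were then at -0.50 and -0.40 and still called. The length of all annotated exons, an alternative chosen after seeing the data, changed the level per kilobase of 7 of the 10 members beyond the SD between libraries. Every member had at least 294 counts in each library.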
